A study of Mus musculus with 17 samples.

Results

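The genes described here encode the neurofilament subunits (Nefl, Nefm, Nefh and Ina), proteins that bind along microtubules (Mapt, Map1a, Map1b and Map4) and stathmin-family proteins that bind free tubulin (Stmn2 and Stmn3). These 10 genes were picked by symbol from a table of 55453 distinct symbols measured by RNA-Seq of mouse cortex. All 10 were among the 16265 genes with a mean of at least 1 TPM (transcripts per 1000000, a measure that is divided by transcript length) over the 17 mice. The symbols were taken as a functional family and not for a measured value, although earlier results of these data were known when they were picked.

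All mice were C57BL/6J males, and RNA came from bulk cortex. KO mice were hemizygous for a loss of X-linked Hnrnph2, which encodes an RNA-binding protein, through an indel that introduces a premature stop codon. R206W and P209L mice were hemizygous knockins of disease-linked amino acid substitutions in hnRNPH2, made in the mouse gene. Each mutant group held 3 mice, aged 8 weeks in the KO and R206W lines and 3 weeks in the P209L line. Wild-type littermates of the same age served as controls, and 3, 3 and 2 of them were analysed here for the KO, R206W and P209L lines. The labels do not mention pooling of mice. The 3-week mice belonged to the P209L line alone, so that age and line cannot be told apart.

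Neurofilaments are the intermediate filaments of neurons. They are assembled from light (Nefl), medium (Nefm) and heavy (Nefh) subunits together with α-internexin (Ina), run along axons and contribute to axon calibre, and the heavy subunit is known to accumulate late in maturation. Microtubule-associated proteins (MAPs) bind to the microtubule lattice: tau (Mapt) is best known in axons, MAP1B in growing neurites, MAP1A in mature neurons and MAP4 in many cell types. Stathmins sequester tubulin dimers and favour microtubule turnover, and stathmin-2 is known for its part in axon outgrowth.

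KO control 1 stood apart from the other mice. Of its TPM, 20.1% came from mitochondrial-encoded genes, against 10.7% to 15.4% in the other mice, and its levels of all 10 genes were the lowest among the 12 mice aged 8 weeks. They ranged from 38.5% (Nefm) to 80.2% (Stmn3) of the mean of the other KO controls. Many age, KO and ratio results are therefore also given without this mouse. The targeted gene, Hnrnph2, was at 23.1 ± 1.59 TPM (SD, n = 3) in KO mice and 122 ± 35.7 TPM (SD, n = 3) in their controls, of which KO control 1 was at 80.5 TPM and the others had a mean of 142 ± 3.56 TPM (SD, n = 2). It was at 146 ± 12.9 and 145 ± 4.57 TPM (SD, n = 3 each) in R206W mice and their controls, and at 92.5 ± 9.30 (SD, n = 3) and 86.5 ± 6.97 TPM (SD, n = 2) in P209L mice and theirs. Of 10 markers of cortical excitatory neurons, 0 were at 0 TPM in any group, and Foxp2 had the lowest group mean, 2.20 TPM in the P209L controls. Sequencing depth is unknown, since TPM does not retain it, and precision was judged from the spread between mice.

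To place these genes in wild-type cortex, their levels were first ranked. At 8 weeks Stmn3 led with a mean of 548 ± 55.0 TPM, and Nefh was last with 22.5 ± 6.40 TPM (SD, n = 6 for each). The ranges of Stmn3 and of Nefh did not overlap those of their neighbours in the ranking. Between them lay Stmn2 (289 TPM), Map1a (285), Nefl (247), Map4 (245), Mapt (217), Map1b (164), Nefm (132) and Ina (103 TPM), and each of these neighbouring means came from ranges that overlapped. At 3 weeks, with 2 control mice, the order was Stmn3 (744 TPM), Stmn2 (388), Nefl (163), Mapt (143), Map4 (139), Map1a (104), Nefm (85.1), Ina (56.8), Map1b (51.6) and Nefh (11.7 TPM). Mapt and Map4 were the only neighbours whose ranges overlapped at this age. Map1a was the sixth of the 10 genes at 3 weeks and the third at 8 weeks. With KO control 1 left out it was the second at 8 weeks (314 ± 31.2 TPM, against 303 ± 13.2 TPM for Stmn2, SD, n = 5 each, with overlapping ranges), the other genes kept their order, and the ranges no longer overlapped between Stmn2 and Nefl or between Mapt and Map1b.

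**Figure D1:**
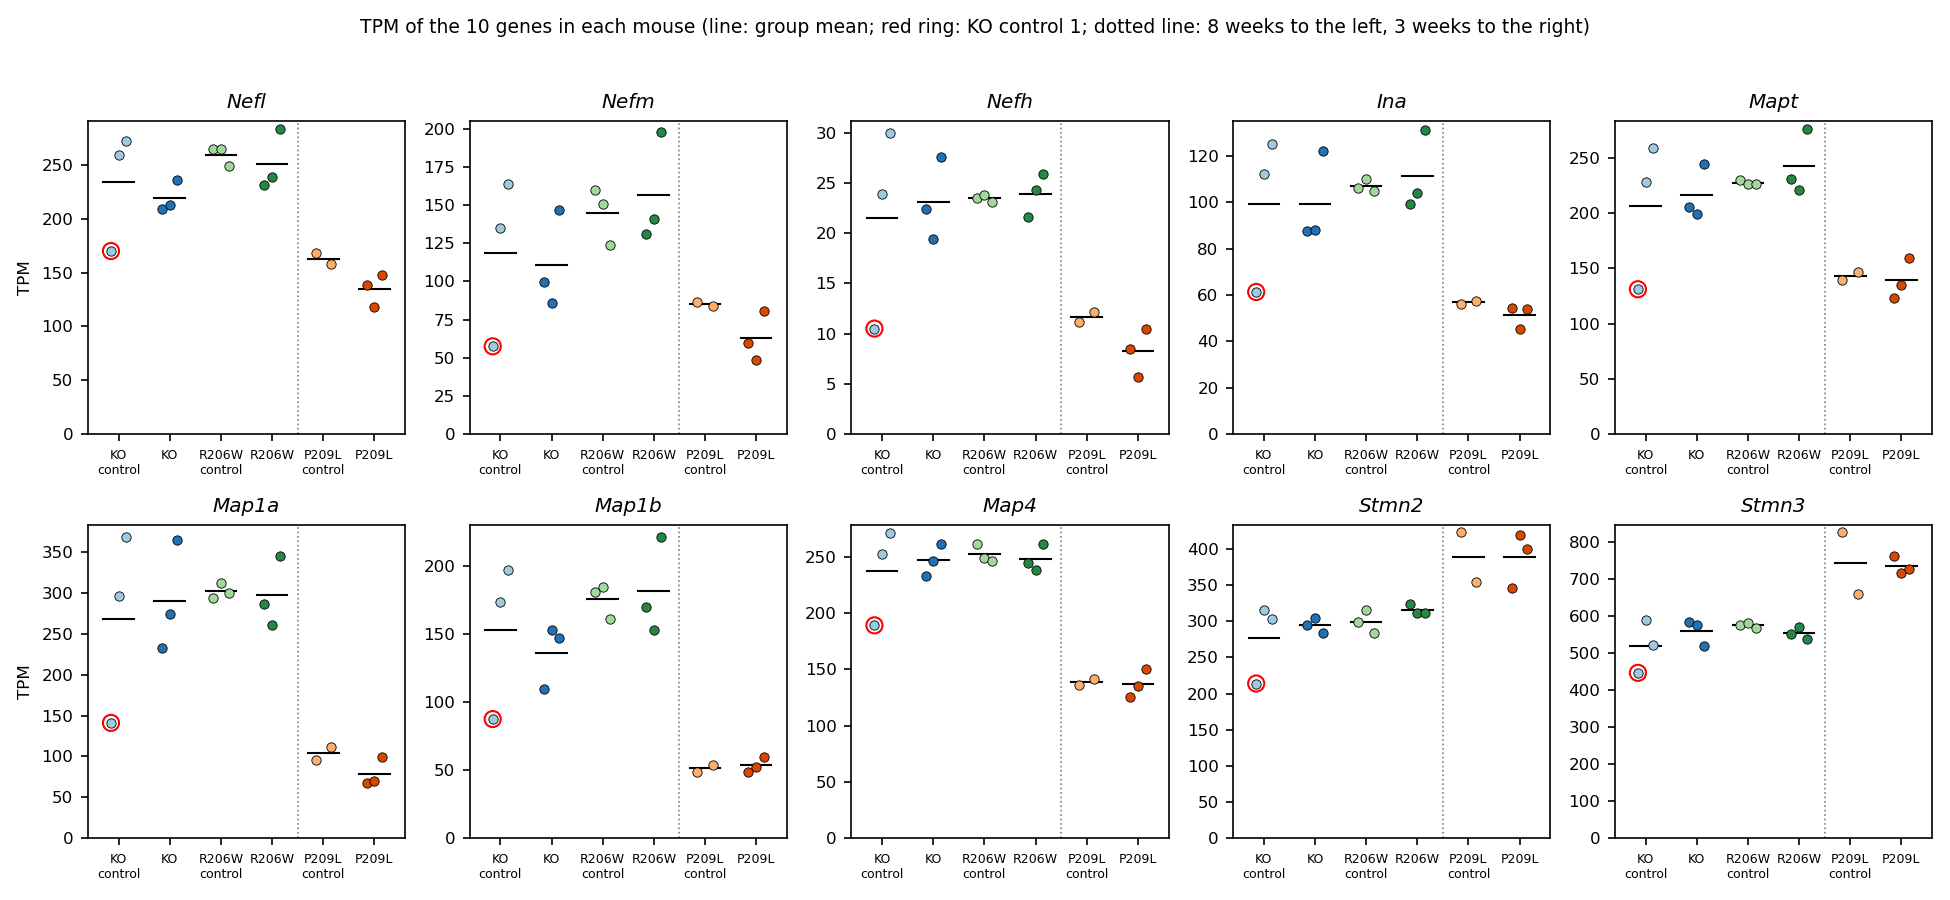
TPM (linear axes from 0) of each of the 10 genes in every mouse, by group, with a line at the group mean. The 3-week mice lie to the right of the dotted line, with Map1b between 49.0 and 59.8 TPM and Stmn3 between 660 and 828 TPM, and KO control 1, ringed in red, is the lowest 8-week mouse in all 10 panels.

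The wild-type mice were then compared by age. All MAP genes and 3 of the 4 neurofilament genes were lower, and both stathmin genes were higher, in 3-week than in 8-week control cortex. Of the 10 genes, 7 were lower (Nefl, Nefh, Ina, Mapt, Map1a, Map1b and Map4) and 2 were higher (Stmn2 and Stmn3) at an adjusted p under 0.05 in limma, and Nefm did not pass. Among all genes tested, 24.8% were lower and 11.3% were higher by the same rule. The median difference was -0.69 on the log2 scale over the 10 genes and -0.121 over all genes. All differences are of log2(TPM + 1), 3-week minus 8-week controls. In bulk tissue, fewer cells of a type and less RNA per cell cannot be told apart.

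Nefl encodes the light subunit, on which the other neurofilament chains assemble (chromosome 14, 68083863 to 68089095, plus strand, GRCm38). Its TPM in the 6 controls at 8 weeks had a lowest value of 170, a median of 262 and a highest value of 272, and the 3-week controls were at 168 and 158. The 3-week mice lay just under the lowest 8-week mouse, which was KO control 1. The log2 difference was -0.58 (SE 0.150, adjusted p = 0.00816, limma). Nefm, the medium subunit, lies on the opposite strand of chromosome 14 (68082590 to 68124846) and its annotated span contains that of Nefl. It was at 57.5, 143 and 164 TPM (lowest, median and highest) at 8 weeks and at 86.5 and 83.7 TPM at 3 weeks. The groups overlapped through KO control 1 alone, and the difference of -0.55 (SE 0.310) had an adjusted p = 0.179 in limma. Without KO control 1 it was -0.78, with an adjusted p = 0.00919. How the counting treated strand is not given in the sources used here, so reads shared by Nefl and Nefm could have been assigned to either.

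Nefh, the heavy subunit (chromosome 11, 4938754 to 4948064, minus strand), was at 10.5, 23.7 and 30.0 TPM (lowest, median and highest) at 8 weeks and at 11.2 and 12.2 TPM at 3 weeks. Again only KO control 1 reached down to the younger mice. The log2 difference was -0.83 (SE 0.273, adjusted p = 0.0277, limma). Ina encodes α-internexin, a subunit of central neurons (chromosome 19, 47014698 to 47025327, plus strand). Its TPM was 61.3, 108 and 125 at 8 weeks and 56.2 and 57.4 at 3 weeks, without overlap, and the difference was -0.82 (SE 0.207, adjusted p = 0.00707, limma). Without KO control 1, the differences were -0.68 for Nefl, -1.04 for Nefh and -0.97 for Ina, each larger than with it.

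Summed over the 4 subunit genes, the level was 504 ± 105 TPM (SD, n = 6) in 8-week controls and 317 ± 7.26 TPM (SD, n = 2) in 3-week controls. Nefl made up 49.6% ± 3.75 of this sum at 8 weeks and 51.5% ± 0.972 at 3 weeks. Nefm made up 25.6% ± 3.47 and 26.9% ± 0.00668, Nefh 4.38% ± 0.519 and 3.70% ± 0.295, and Ina 20.5% ± 0.792 and 17.9% ± 0.684 (SD, n = 6 and 2). The Ina share, 19.1% to 21.1% at 8 weeks and 17.5% to 18.4% at 3 weeks, was the only share whose ranges did not overlap when all mice were used. The summed level at 8 weeks was 545 ± 33.2 TPM (SD, n = 5) without KO control 1. The shares of Nefl (46.0% to 49.7% at 8 weeks, 50.8% to 52.2% at 3 weeks) and of Nefh (4.24% to 5.08% and 3.49% to 3.91%) then separated the ages as well, and that of Nefm (24.8% to 28.9% at 8 weeks) still overlapped.

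**Figure D2:**
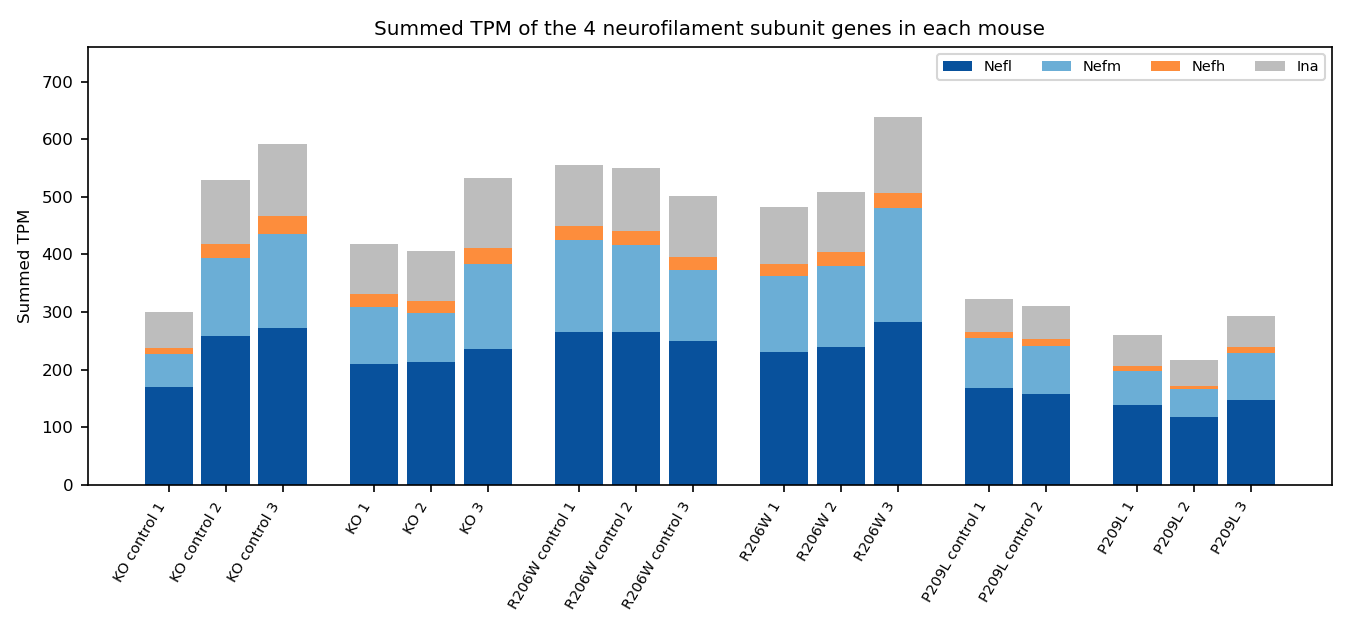
Summed TPM (linear axis from 0) of the 4 neurofilament subunit genes in each mouse, stacked by gene. The 3-week controls reach 322 and 312 TPM and the P209L mice 218 to 293 TPM, against 500 to 590 TPM in the 8-week controls other than KO control 1, which is at 299 TPM.

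The largest age differences among the 10 genes were those of Map1a and Map1b, which encode long filament-like proteins of the same family, each cut into a heavy and a light chain. Map1b (chromosome 13, 99421446 to 99516540, minus strand) was at 87.7, 178 and 197 TPM (lowest, median and highest) at 8 weeks and at 49.1 and 54.1 TPM at 3 weeks. Its mean at 3 weeks was 31.4% of that at 8 weeks, a log2 difference of -1.61 (SE 0.234, adjusted p = 0.000167, limma). Map1a (chromosome 2, 121289600 to 121310832, plus strand) was at 141, 298 and 368 TPM at 8 weeks and at 96.1 and 112 TPM at 3 weeks. This was 36.4% of the 8-week mean, a log2 difference of -1.39 (SE 0.269, adjusted p = 0.00124, limma). Neither gene's ranges overlapped, even with KO control 1 included. Without that mouse, the differences were -1.79 for Map1b and -1.60 for Map1a. The Map1a span overlaps Ppip5k1 and the antisense gene Gm14978 on the other strand.

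Map4 (chromosome 9, 109931460 to 110083955, plus strand) encodes a MAP of many tissues. It was at 189, 251 and 271 TPM at 8 weeks and at 136 and 141 TPM at 3 weeks, without overlap, and it had the smallest standard error of the MAP genes (-0.81, SE 0.120, adjusted p = 0.000208, limma). Mapt, which encodes tau (chromosome 11, 104231390 to 104332090, plus strand, with the antisense gene Gm11659 inside its span), was at 131, 227 and 259 TPM at 8 weeks and at 139 and 147 TPM at 3 weeks. KO control 1 was below both 3-week mice. The log2 difference of Mapt was -0.57 (SE 0.190, adjusted p = 0.0300, limma), and -0.71 without that mouse. Leaving that mouse out moved the difference of Map4 to -0.88. A sum over transcripts, as here, cannot show which tau isoforms were present.

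The stathmin genes lay on the other side. Stmn2 (chromosome 3, 8509360 to 8561606, plus strand) was at 214, 301 and 316 TPM (lowest, median and highest) at 8 weeks and at 423 and 354 TPM at 3 weeks, a difference of 0.43 (SE 0.132, adjusted p = 0.0185, limma). Stmn3 (chromosome 2, 181306459 to 181314500, minus strand) was at 447, 573 and 591 TPM at 8 weeks and at 828 and 660 TPM at 3 weeks, a difference of 0.44 (SE 0.109, adjusted p = 0.00624, limma). In each gene the 3-week mice were both above every 8-week control, and P209L control 1 was the higher of them. Without KO control 1, the differences were 0.35 for Stmn2 and 0.39 for Stmn3, each smaller than with it.

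Counted by ranges alone, 5 of the 10 genes were lower without overlap at 3 weeks (Nefl, Ina, Map1a, Map1b and Map4) and 2 were higher (Stmn2 and Stmn3), against 21.5% lower and 16.7% higher among all genes tested. When KO control 1 was left out, the 10 genes all separated by age, 8 lower and 2 higher, where 45.9% of all genes were lower and 18.3% higher without overlap. When all 5 mice aged 3 weeks were set against all 12 aged 8 weeks, mutants included, all 10 genes passed in limma, 8 lower and 2 higher, where 39.4% of all genes were lower and 18.4% higher. In that fit Nefm was at -0.80 (adjusted p = 0.00367) and Nefh at -1.13 (adjusted p = 9.28e-05). With only 2 controls at 3 weeks, the count of 9 in limma rested on both of them. It was 4 without P209L control 1 (Nefl, Map1a, Map1b and Map4) and 5 without P209L control 2 (Map1a, Map1b, Map4, Stmn2 and Stmn3), where 18.4% and 16.7% of all genes passed in either direction, against 36.1% with all mice. It was 10 without KO control 1, where 50.3% of all genes passed.

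**Figure D3:**
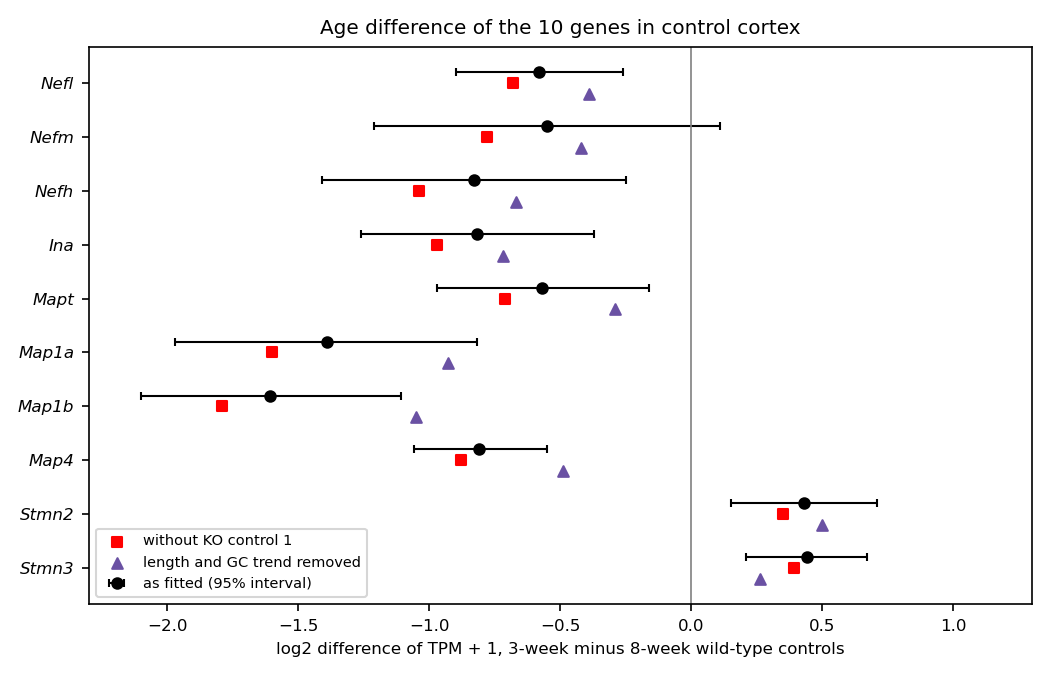
Log2 difference of TPM + 1 between 3-week and 8-week wild-type controls for the 10 genes, with 95% intervals from limma (black), without KO control 1 (red) and after removal of the trend with transcript length and GC content (purple). The 8 neurofilament and MAP genes lie below 0 and the 2 stathmin genes above 0 in all versions, and only the black interval of Nefm (-1.21 to 0.11) spans 0.

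The age difference ran with transcript length across the transcriptome. Over 16138 genes with a length, the log2 difference had a Pearson r of -0.33 with the log2 length of the longest coding transcript. This r is across genes, which share the same libraries and are no independent replicates. Genes of up to 1000 bases had a median difference of 0.16, and genes over 8000 bases had a median of -0.56, with 62.9% of the latter lower at an adjusted p under 0.05 in limma. KO control 1 differed from the other KO controls along the same axis, with medians of 0.03 up to 1000 bases and -0.50 over 8000 bases. Across genes, the deviation of each mouse from the mean of all mice had an r with log2 length of -0.24 in KO control 1, 0.21 to 0.37 in the other 8-week controls, and -0.26 and -0.28 in the 3-week controls. The r of the age difference was -0.37 without that mouse, and the median over 8000 bases was -0.65. The part of library quality in the trend was not tested. Map1a (11825 bases) and Map1b (11808 bases) were in this longest class, whereas Stmn3 (1136 bases) and Stmn2 (2073 bases) were the shortest of the 10. Between them were Ina (3240), Nefl (3380), Nefm (3680), Nefh (3994), Mapt (5253) and Map4 (6091 bases). After the trend with length and GC content was removed in each mouse, an alternative chosen after the values were seen, the differences were -0.93 for Map1a, -1.05 for Map1b, -0.49 for Map4, -0.29 for Mapt and -0.39 for Nefl. The count was then 8 of the 10 genes, where 41.8% of all genes passed in either direction, and the gene that no longer passed was Stmn3 (0.26, adjusted p = 0.0852, limma).

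**Figure D4:**
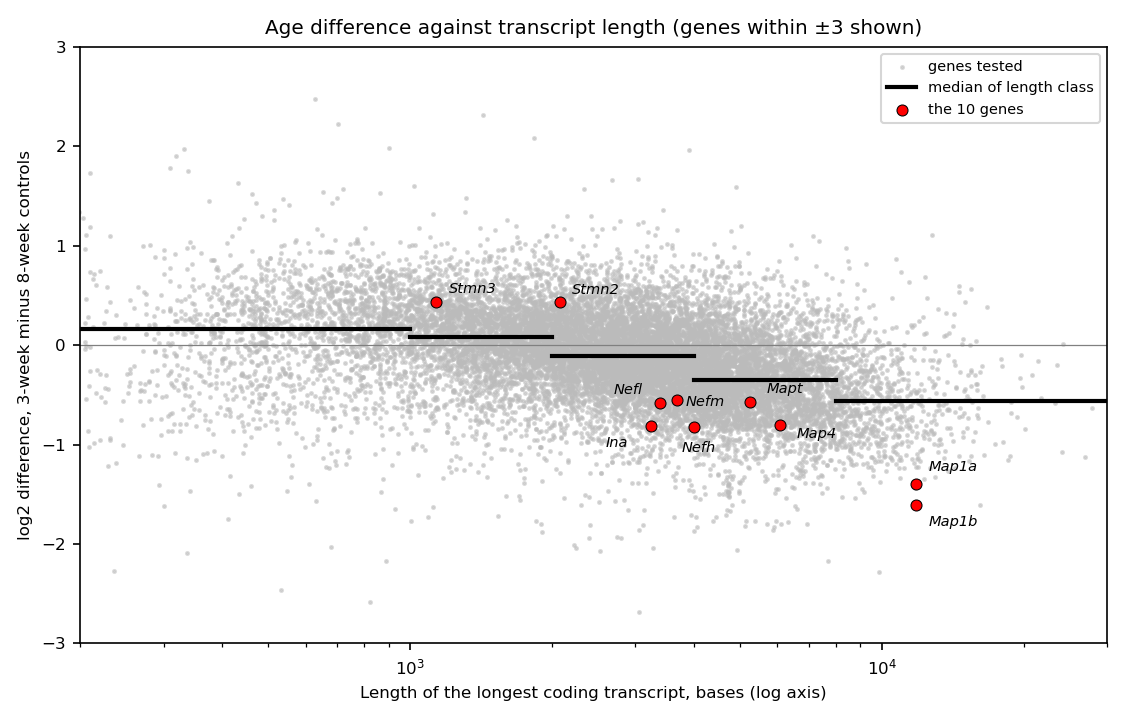
Log2 difference of TPM + 1 between 3-week and 8-week controls against the length of the longest coding transcript (log axis), for genes tested with a length (grey, those beyond the axes not drawn), with the median of each length class (black) and the 10 genes (red). The class medians go from 0.16 up to 1000 bases to -0.56 over 8000 bases, and Map1a and Map1b, at -1.39 and -1.61, lie below the median of their class.

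Promoters were read from RefSeq (GRCm38.p6), which matched 5 of the 10 genes. Each window is the 250 bases upstream of the annotated start, 5′ to 3′ on the strand of the gene, with each GGGCGG, on either strand, in capitals and overlapping matches counted separately. They belong to genes that were lower (Map1a, Map1b, Map4 and Ina) or higher (Stmn3) at 3 weeks, and Map4 has a window at each of 2 annotated starts. The windows are chr2:121289352-121289601 (plus strand) for Map1a, chr13:99516603-99516852 (minus) for Map1b, chr9:109931524-109931773 and chr9:110051771-110052020 (plus) for Map4, chr19:47014431-47014680 (plus) for Ina and chr2:181314501-181314750 (minus) for Stmn3.
Map1a: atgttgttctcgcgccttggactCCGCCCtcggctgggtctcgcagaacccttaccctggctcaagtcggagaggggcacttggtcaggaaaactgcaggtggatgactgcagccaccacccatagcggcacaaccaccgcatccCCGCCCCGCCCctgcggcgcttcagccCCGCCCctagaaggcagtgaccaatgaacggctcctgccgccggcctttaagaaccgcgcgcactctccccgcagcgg
Map1b: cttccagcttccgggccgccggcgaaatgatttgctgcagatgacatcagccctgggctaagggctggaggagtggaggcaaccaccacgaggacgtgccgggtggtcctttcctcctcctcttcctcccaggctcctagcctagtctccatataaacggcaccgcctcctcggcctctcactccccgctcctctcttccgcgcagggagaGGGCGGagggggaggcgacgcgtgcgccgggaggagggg
Map4, upstream start: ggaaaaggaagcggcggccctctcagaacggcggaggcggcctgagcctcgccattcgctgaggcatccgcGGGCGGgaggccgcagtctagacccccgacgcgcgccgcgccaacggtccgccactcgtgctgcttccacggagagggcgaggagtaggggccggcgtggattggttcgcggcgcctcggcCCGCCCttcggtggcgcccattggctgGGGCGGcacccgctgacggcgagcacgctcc
Map4, downstream start: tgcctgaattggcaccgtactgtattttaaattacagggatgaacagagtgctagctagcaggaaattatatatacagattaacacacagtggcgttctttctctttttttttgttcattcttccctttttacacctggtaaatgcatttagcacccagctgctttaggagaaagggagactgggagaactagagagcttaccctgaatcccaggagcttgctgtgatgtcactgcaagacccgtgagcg
Ina: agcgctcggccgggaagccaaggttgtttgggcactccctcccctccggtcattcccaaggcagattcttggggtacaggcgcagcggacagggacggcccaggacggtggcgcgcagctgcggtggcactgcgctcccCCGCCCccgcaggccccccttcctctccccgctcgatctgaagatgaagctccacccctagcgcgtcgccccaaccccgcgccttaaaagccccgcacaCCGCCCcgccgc
Stmn3: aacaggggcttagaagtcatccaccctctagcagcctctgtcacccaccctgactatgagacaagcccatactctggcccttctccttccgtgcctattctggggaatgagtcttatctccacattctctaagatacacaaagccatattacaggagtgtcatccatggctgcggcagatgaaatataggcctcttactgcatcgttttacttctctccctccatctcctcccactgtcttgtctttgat
GGGCGG occurred 4 times for Map1a, 1 time for Map1b, 2 times for Ina, 3 times at the upstream and 0 times at the downstream start of Map4, and 0 times for Stmn3, and at least once in 32.7% of all 32851 promoters of this length. GC content was 66.0% for Map1a, 66.4% for Map1b, 70.8% for Ina, 74.0% and 43.6% at the upstream and downstream starts of Map4, and 48.8% for Stmn3. Among the windows of genes that were lower, only that at the downstream start of Map4 lay below Stmn3 in GC content. CCAAT, on either strand, was found 1 time for Map1a and 2 times and 1 time at the upstream and downstream starts of Map4 (33.8% of all promoters hold it), and TATAAA 1 time, in the window of Map1b (12.4% of all promoters). Neither motif shares bases with a GGGCGG match in these windows.

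The other genes of the cytoskeleton were taken from 6 lists, of which 96 genes were tested. Of these, 36 were lower and 6 were higher at 3 weeks at an adjusted p under 0.05 in limma, to be read against the 24.8% and 11.3% of all genes. The counts without KO control 1 were 57 lower and 6 higher (37.4% and 12.9% of all genes), those without P209L control 1 were 21 and 0 (13.2% and 5.15%), and those without P209L control 2 were 18 and 3 (11.7% and 4.99%). Among 30 other MAPs, 13 were lower and 2 higher (median -0.36). Map2, the dendritic MAP, was at 558 ± 69.8 TPM at 8 weeks and 290 ± 3.66 TPM at 3 weeks (-0.93, SE 0.117, adjusted p = 6.71e-05, limma), and Tppp, which bundles microtubules in oligodendrocytes, was at 305 ± 32.5 and 198 ± 10.2 TPM (-0.62). Stmn4, a further stathmin, was higher at 470 ± 63.7 TPM against 352 ± 38.2 TPM (0.42, SE 0.116, adjusted p = 0.0120, limma), and so was Camsap3, which binds microtubule minus ends, at 21.3 ± 0.325 against 13.6 ± 2.93 TPM (0.64). With KO control 1 left out, these differences were -1.01 for Map2, -0.69 for Tppp, 0.35 for Stmn4 and 0.51 for Camsap3, and each passed. Values are SD, with n = 2 at 3 weeks and n = 6 at 8 weeks, here and in the next paragraph.

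Among 18 kinesin and dynein genes, 9 were lower and 0 higher (median -0.48). The kinesin-1 heavy chains led them, with Kif5b at 48.2 ± 5.87 TPM against 133 ± 15.7 TPM (-1.45, SE 0.131) and Kif5c at 259 ± 2.43 against 440 ± 14.3 TPM (-0.76, SE 0.081). Of 11 tau kinases and phosphatase subunits, 6 were lower and 1 higher (median -0.54). Gsk3b was at 25.3 and 24.6 TPM in the 3-week mice against 61.7 ± 11.5 TPM (-1.24) and Ttbk2 at 12.1 ± 1.05 against 30.1 ± 3.76 TPM (-1.23), while Cdk5 was higher at 101 ± 0.0424 against 80.1 ± 9.53 TPM (0.34). Of 14 severing and tubulin-modifying enzymes, 5 were lower and 2 higher (median -0.19). The katanin-like gene Katnal1 was at 16.7 and 17.2 TPM against 41.2 ± 7.62 TPM (-1.21) and the tubulin polyglutamylase Ttll7 at 62.8 ± 10.3 against 112 ± 14.4 TPM (-0.83). Svbp, the partner of the tubulin detyrosinating vasohibins, was at 30.2 ± 3.25 against 19.5 ± 3.48 TPM (0.62), and Tpgs1, a polyglutamylase subunit, was at 55.4 ± 3.32 against 43.4 ± 5.78 TPM (0.35).

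Of 15 tubulin genes tested, 1 was lower (Tuba1c, 81.2 ± 5.83 against 132 ± 21.2 TPM, -0.68) and 1 was higher (Tubd1, 5.36 ± 0.693 against 3.78 ± 0.388 TPM, 0.41), with a list median of -0.12. Of 8 other intermediate filament genes, 2 were lower (Synm and Lmnb1, both with overlapping ranges) and 0 were higher, with a median of -0.33.

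Of 53 cell type markers tested, 15 were lower (28.3%) and 10 were higher (18.9%) at 3 weeks, beside 24.8% and 11.3% of all genes. These counts were 25 and 10 without KO control 1, beside 37.4% and 12.9% of all genes. Of 10 excitatory neuron markers, 5 were lower and 0 higher at 3 weeks, and their summed level was 769 to 783 TPM in the 3-week controls, 698 to 1181 in the KO controls and 1005 to 1117 TPM in the R206W controls. Of 10 oligodendrocyte markers, 7 were higher and 0 lower. They summed to 4269 and 6366 TPM in the 3-week controls, 2724 to 3518 in the KO controls and 3487 to 3809 TPM in the R206W controls. The P209L mice, also aged 3 weeks, were at 2576 to 3680 TPM. Among 6 inhibitory neuron markers 1 was lower (Gad2), among 8 astrocyte markers 4 were lower, among 8 microglia markers 2 were higher and 3 lower, among 6 endothelial markers 1 was higher and 2 were lower, and among 5 striatal markers tested 0 passed. The part of these differences in those of the neurofilament and MAP genes was not tested.

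Next, each mutant was compared with its own controls. No neurofilament, MAP or stathmin gene differed at an adjusted p under 0.05 in limma in KO, R206W or P209L cortex, and 0 of the 10 had an unadjusted p under 0.05 in any of the lines. The share of all genes at an unadjusted p under 0.05 was 4.08% for KO, 2.19% for R206W and 7.46% for P209L, so that a count of 0 in 10 is near the background. After adjustment 0.00615% of all genes passed for KO, 0.0369% for R206W and 0.0984% for P209L, either direction, so that few calls of any gene were made in these comparisons. The 96 genes of the other cytoskeletal lists gave 0 calls in each line.

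**Figure D5:**
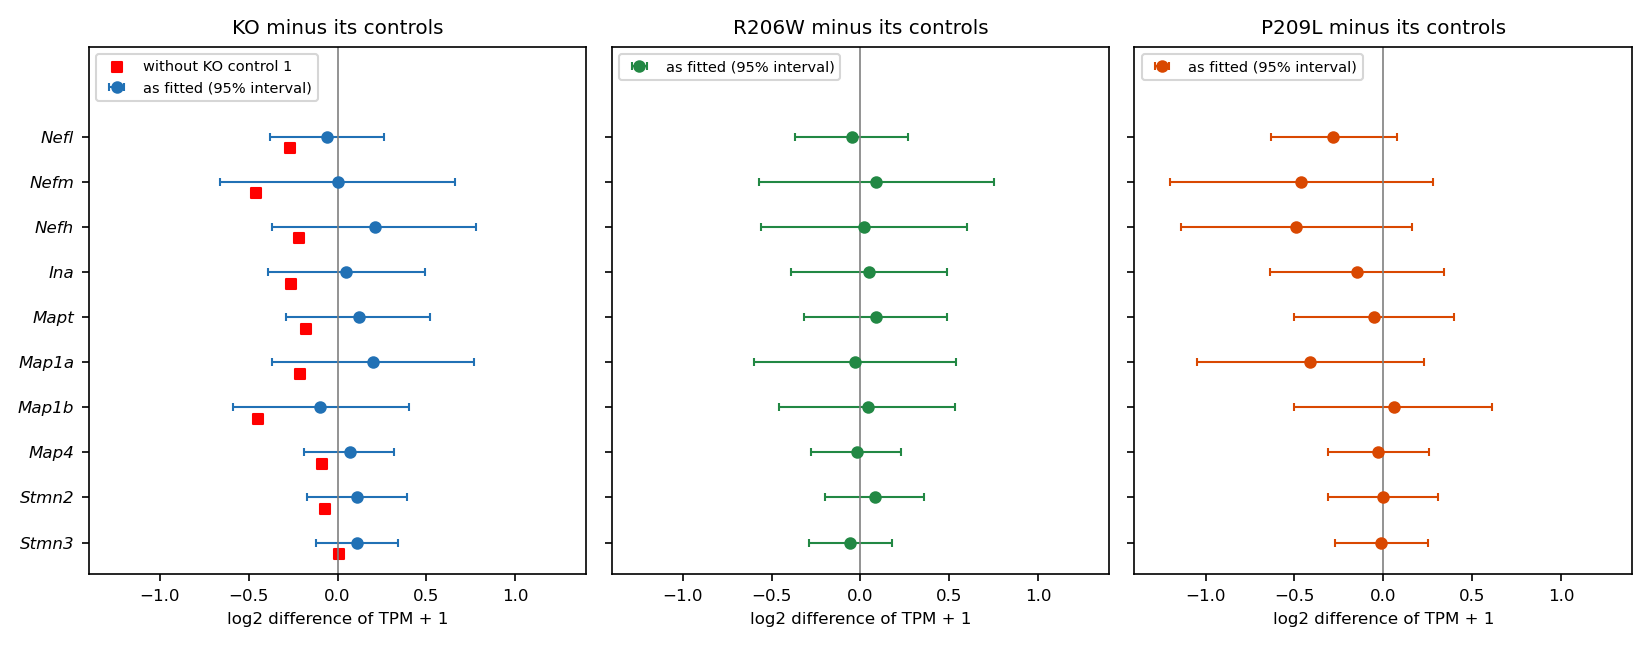
Log2 difference of TPM + 1 between each mutant group and its own controls for the 10 genes, with 95% intervals from limma, and in red the KO values without KO control 1. All 30 intervals span 0, the P209L values of Nefm, Nefh and Map1a are at -0.46, -0.49 and -0.41, and 9 of the 10 KO values are below 0 once KO control 1 is left out.

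In P209L cortex, the 4 neurofilament subunit genes lay below the control values in every mouse, by amounts that did not pass the test. Nefl was at 138, 118 and 148 TPM in P209L mice and at 168 and 158 TPM in their controls. Nefm was at 59.9, 48.4 and 80.6 TPM against 86.5 and 83.7 TPM. Nefh was at 8.48, 5.73 and 10.5 TPM against 11.2 and 12.2 TPM. In these subunits, both controls lay above the highest P209L mouse, and P209L 2 was the lowest mouse of the 17. Ina was at 54.4, 45.3 and 53.9 TPM against 56.2 and 57.4 TPM, also without overlap. Of the 10 genes, these 4 were the ones without overlap, all lower, where 10.7% of all genes were lower without overlap and 14.2% were higher.

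None of these differences passed in limma at an adjusted p under 0.05. The log2 differences were -0.28 for Nefl (95% interval -0.63 to 0.08), -0.46 for Nefm (-1.20 to 0.28), -0.49 for Nefh (-1.14 to 0.16) and -0.15 for Ina (-0.64 to 0.34), and the lowest adjusted p of the 10 genes was 0.803 in limma. As means, Nefl was at 82.7%, Nefm at 74.0%, Nefh at 70.5% and Ina at 90.2% of control. The intervals still allow a log2 difference of -1.14 in Nefh. All groups share 1 estimate of the spread, and without KO control 1 the intervals narrowed, to -0.50 to -0.05 for Nefl (adjusted p = 0.320) and -0.89 to -0.09 for Nefh (adjusted p = 0.318, limma), and 3 of the 10 genes (with Map1a) had an unadjusted p under 0.05, beside 12.1% of all genes. The summed level of the subunit genes was 257 ± 38.1 TPM (SD, n = 3) in P209L mice and 317 ± 7.26 TPM (SD, n = 2) in their controls. After other scalings the genes without overlap were Nefl, Nefm, Nefh and Map1a with median-of-ratios size factors, these and Ina with quantile normalization, and Nefl, Nefh and Map1a after removal of the length and GC trend. No share of all genes without overlap is at hand for these other scalings. Whether these lists exceed the background under each scaling is therefore unknown.

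Among the MAPs, Map1a was at 67.2, 69.6 and 99.5 TPM in P209L mice and at 96.1 and 112 TPM in controls, overlapping through P209L 3 (-0.41, 95% interval -1.05 to 0.23). Map1b was at 49.0, 52.8 and 59.8 TPM against 49.1 and 54.1 TPM (0.06, -0.50 to 0.61). The ratio of Map1a to Map1b within a mouse, which does not depend on how that mouse was scaled, was 1.32 to 1.66 in P209L mice and 1.96 to 2.06 in their controls. These ranges did not overlap, and the exact two-sided permutation p = 0.2 was the smallest that 3 mice against 2 can give (adjusted p = 0.476 over 20 ratio tests). Mapt was at 123, 135 and 159 TPM against 139 and 147 TPM (-0.05, -0.50 to 0.40), and Map4 at 125, 135 and 150 TPM against 136 and 141 TPM (-0.03, -0.31 to 0.26). The controls lay inside the range of the mutants for Mapt and Map4.

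The stathmin genes overlapped between P209L mice and their controls. Stmn2 was at 346, 419 and 400 TPM against 423 and 354 TPM (0.00, 95% interval -0.31 to 0.31), and Stmn3 at 762, 718 and 727 TPM against 828 and 660 TPM (-0.01, -0.27 to 0.25). For both, the controls differed from each other by more than the group means did.

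Oligodendrocyte markers had lower readings in the same mice. Their summed level was 4269 and 6366 TPM in the P209L controls and 2576 to 3680 TPM in P209L mice, with a median log2 difference of -0.84, and 0 of these 10 markers were at 0. All 10 had an unadjusted p under 0.05, and 0 passed the adjustment in limma (lowest adjusted p = 0.0844). Excitatory neuron markers summed to 751 to 956 TPM in P209L mice and 769 to 783 TPM in controls. The part of the oligodendrocyte markers in the neurofilament values was not tested.

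In R206W cortex the differences of the 10 genes had the narrowest range of the lines, from -0.06 (Stmn3) to 0.09 (Nefm and Mapt) on the log2 scale. However, those of Mapt, Stmn2 and Stmn3 were nearer to 0 in P209L (-0.05, 0.00 and -0.01). Those of Nefm (-0.00) and, before rounding, Ina (0.05 in both lines) were nearer to 0 in KO than in R206W. Nefl was at 231, 239 and 283 TPM in R206W mice and at 265, 265 and 249 TPM in their controls (-0.05, 95% interval -0.37 to 0.27). Nefh was at 21.6, 24.3 and 25.9 TPM against 23.5, 23.8 and 23.1 TPM (0.02, -0.56 to 0.60). Map1b was at 170, 153 and 222 TPM against 181, 185 and 161 TPM (0.04, -0.46 to 0.53). In these genes R206W 3 was the highest of the 6 mice and the groups overlapped, as they did in all 10, against 16.2% of all genes without overlap. Among the other subunits, Nefm was at 131, 141 and 198 TPM against 160, 151 and 124 TPM (0.09, -0.57 to 0.75), and Ina at 99.2, 104 and 131 TPM against 106, 110 and 105 TPM (0.05, -0.39 to 0.49). Mapt was at 231, 221 and 276 TPM against 230, 226 and 226 TPM (0.09, -0.32 to 0.49), and Map1a at 286, 260 and 345 TPM against 293, 312 and 300 TPM (-0.03, -0.60 to 0.54). In all of these genes R206W 3 was again above the 3 controls. Map4 was at 244, 238 and 261 TPM against 261, 249 and 246 TPM. Stmn2 was at 324, 311 and 312 TPM against 299, 316 and 284 TPM (0.08, -0.20 to 0.36), and Stmn3 at 551, 572 and 538 TPM against 577, 581 and 568 TPM. The narrowest intervals were those of Stmn3 (-0.29 to 0.18) and Map4 (-0.28 to 0.23). With quantile normalization Map4, and after removal of the length and GC trend Map4 and Stmn3, had lower values in R206W without overlap. The share of all genes without overlap is not given for these scalings, so these genes cannot be set against a background.

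In KO cortex the values depended on KO control 1. With all mice, the log2 differences ran from -0.10 (Map1b) to 0.21 (Nefh), 7 of them above 0, and the groups overlapped in all 10 genes, against 6.25% of all genes without overlap. Nefm was at 99.6, 86.1 and 147 TPM in KO mice and at 57.5, 135 and 164 TPM in controls (-0.00, 95% interval -0.66 to 0.66). Map1b was at 110, 153 and 147 TPM against 87.7, 174 and 197 TPM (-0.10, -0.59 to 0.40). Nefh was at 22.4, 19.4 and 27.6 TPM against 10.5, 23.9 and 30.0 TPM (0.21, -0.37 to 0.78). In each of them KO control 1 was below, and KO control 3 above, every KO mouse.

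The remaining genes showed the same mouse at the bottom of the range. Nefl had a mean of 219 ± 14.7 TPM (SD, n = 3) and a highest value of 236 TPM in KO mice, and was at 170, 259 and 272 TPM in controls (-0.06, 95% interval -0.38 to 0.26). Ina was at 87.8, 88.1 and 122 TPM against 61.3, 112 and 125 TPM (0.05, -0.39 to 0.49). For these neurofilament subunits, KO controls 2 and 3 were above the mean of the KO mice. Mapt was at 205, 199 and 244 TPM against 131, 228 and 259 TPM (0.12, -0.29 to 0.52). Map1a was at 233, 274 and 364 TPM against 141, 296 and 368 TPM (0.20, -0.37 to 0.77). Map4 was at 233, 246 and 261 TPM against 189, 252 and 271 TPM (0.07, -0.19 to 0.32). In these MAP genes every KO mouse lay inside the range of the controls. Stmn2 was at 295, 305 and 284 TPM against 214, 315 and 303 TPM (0.11, -0.17 to 0.39), and Stmn3 at 583, 576 and 520 TPM against 447, 591 and 523 TPM (0.11, -0.12 to 0.34).

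Without KO control 1, 9 of the 10 KO values were below 0, with a median of -0.21 against -0.059 over all genes, and 0 passed in limma (lowest adjusted p = 0.410, for Map1b at -0.45). Nefm was then at -0.46, Nefl at -0.27, Ina at -0.26 and Nefh at -0.22. Among the MAP and stathmin genes, Map1a was at -0.21, Mapt at -0.18, Map4 at -0.09, Stmn2 at -0.07 and Stmn3 at 0.01. The values of Nefh, Ina, Mapt, Map1a, Map4 and Stmn2 had been above 0 with all mice. Nefl and Map1b were lower in KO without overlap, where 17.2% of all genes were lower and 7.88% higher without overlap, and these genes had an unadjusted p under 0.05 (10.5% of all genes). When limma weighted each mouse by its quality, 3 genes passed, all lower: Map1b (-0.54, adjusted p = 0.0181), Nefl (-0.29, adjusted p = 0.0253) and Ina (-0.33, adjusted p = 0.0363). In that fit 13.3% of all genes passed in KO in either direction, where KO control 1 had the lowest weight, 0.0818, and KO control 2 the highest, 4.05.

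The lines were also compared with each other. The KO effect minus the R206W effect passed for 0 of the 10 genes in limma (0.0307% of all genes), with 0 at an unadjusted p under 0.05, and ran from -0.13 (Map1b) to 0.23 (Map1a). The intervals were wide, for example -0.58 to 1.04 for Map1a and -0.83 to 0.57 for Map1b, and without KO control 1 the differences ran from -0.55 to 0.06, again with 0 calls, and 1 gene (Map1b, -0.49) had an unadjusted p under 0.05, beside 6.98% of all genes. Between the wild-type controls of the R206W and KO lines, 0 of the 10 genes passed in limma (0.00% of all genes, with 507 genes and 0 of the 10 at an unadjusted p under 0.05). All 10 differences (R206W controls minus KO controls) were above 0, from 0.10 (Map4) to 0.41 (Nefm), where the median of all genes was 0.129. Without KO control 1 the range was -0.18 to 0.05.

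Ratios between related genes within a mouse were compared over 20 tests, and 0 passed (lowest adjusted p = 0.476, exact two-sided permutation). The smallest p was 0.0714 for the age comparison, 0.1 for KO and R206W and 0.2 for P209L, so that none of these comparisons could pass the threshold alone. Leaving out KO control 1 also gave 0 that passed, and the smallest p by age was then 0.0952. Nefh to Nefl was 0.0881 in 8-week controls (0.0946 without KO control 1) and 0.0718 in 3-week controls (geometric means), and 0.0596 in P209L mice. The ranges of Nefh to Nefl overlapped between the ages through KO control 1 alone (0.0886 to 0.110 in the other 8-week controls, 0.0669 to 0.0770 at 3 weeks). Ina to Nefl was 0.413 (0.425 without that mouse) and 0.348 in the controls and 0.380 in P209L mice, whose range of 0.364 to 0.393 lay above the 0.335 to 0.363 of their controls. In R206W mice Ina to Nefl (0.429 to 0.465) also lay above its controls (0.400 to 0.420). Map1a to Map1b was 1.72 in 8-week controls (1.61 to 1.87) and 2.01 in 3-week controls (1.96 to 2.06), without overlap. Its p = 0.0714 by exact two-sided permutation was the smallest that this comparison can give (adjusted p = 0.476). Stmn3 to Stmn2 was 1.91 in controls of both ages, and 1.87 at 8 weeks without KO control 1. With all 5 mice aged 3 weeks against all 12 aged 8 weeks, Nefh to Nefl differed by -0.55 and Ina to Nefl by -0.23 on the log2 scale, with an adjusted p = 0.00646 for each over the 5 ratios (exact permutation, smallest p = 0.000323). These were -0.60 and -0.25 without KO control 1, with an adjusted p = 0.00114 for each, by exact permutation. Both comparisons include the mutants at each age and treat mice of all groups as exchangeable. They therefore do not separate age from mutation.

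The genes whose 6 group means most resembled those of Nefh and Map1b were found by the root mean square distance of centred log2(TPM + 1). For Nefh they included Faim2 (0.0526) and Gpr37 (0.0557), and for Map1b they were Hs6st3 (0.0512), Zbtb7a (0.0519) and Gm4798 (0.0542). Faim2, at 271 TPM in R206W controls and 143 TPM in P209L controls, had a mean of 105 TPM in P209L mice. Zbtb7a was at 53.3 TPM in R206W controls, 16.0 TPM in P209L controls and 16.2 TPM in P209L mice. These likenesses rest on 6 group means and are a description.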

How the data were processed

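The authors deposited TPM values by gene symbol, 1 column per mouse, each adding up to 1000000 within rounding. Per the labels, frozen cortex gave total RNA for a stranded total RNA library. The submitters' processing notes name mm10, Trim Galore, STAR 2.7.1a, GATK 4.0.4.0 and RSEM. The annotation and strand setting are not given in the sources used here, and depth is unknown. Of 55573 entries, 120 repeated a symbol and were summed. TPM is a share of each library, so that abundant transcripts can shift all other genes.

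Values were analysed as log2(TPM + 1), so that differences of low genes are understated, for the 16265 genes whose TPM averaged 1 or more. The limma package (3.58.1, R 4.3.3) fitted 6 group means (eBayes, trend=TRUE, two-sided), with Benjamini-Hochberg adjustment over all genes of a contrast and a threshold of 0.05. The age contrast was P209L controls minus the average of the KO and R206W control groups. Within-mouse ratios were tested by exact permutation. The fits were also run on simulated data with independent noise, which held no outlying mouse and no effects as small as the mutant differences. Each sample was taken as 1 mouse, since its labels do not mention pooling. The limma p-values rest on the spread between these samples, estimated once per gene over all groups.

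Coordinates and lengths came from GENCODE M21 (GRCm38), by symbol, and may differ from the annotation of the authors. The 10 genes, 6 cytoskeletal lists (intermediate filaments, MAPs, tubulins, motors, tau kinases, severing enzymes) and 7 marker lists were chosen with earlier results of these data known. From each cytoskeletal list the text names, per mutant, every gene past the threshold, and, by age, the 2 higher and 2 lower genes with the smallest p without overlap. Synm, Lmnb1, Foxp2 and Gad2 were named after their values were seen. The genes nearest to Nefh and Map1b were the 3 with the smallest distance, of which 1 is not reported here. Alternatives were pseudocounts of 0.1 and 0.5, no filter, a mean TPM of 5, median-of-ratios and quantile scaling, removal of mitochondrial genes, contrast groups alone, a replicate block, robust=TRUE, arrayWeights, all mice by age and each mouse left out. Removal of a spline trend (3 degrees of freedom each) with length and GC content was added after seeing the data.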

Additional observations from a re-analysis of the deposited data

Results flagged for a closer look

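Among the 6 wild-type mice aged 8 weeks, KO control 1 lay far from the others in 9 of the 10 genes by Dixon's test of the gap to the nearest mouse as a share of the range. The gap was 0.772 of the range for Nefl, 0.625 for Nefm, 0.648 for Nefh, 0.684 for Ina, 0.740 for Mapt, 0.668 for Map1a, 0.669 for Map1b, 0.690 for Map4 and 0.688 for Stmn2, where the critical value is 0.625, which Nefm exceeded before rounding. Chance flags about 1 in 20 groups, and these 9 genes were measured in the same libraries, so that they are not 9 separate observations. The mouse was the lowest in each.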

How the results depend on the processing

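The age count of 9 of 10 genes was 5 when limma was fitted on the control groups alone (Nefh, Mapt, Stmn2 and Stmn3 had adjusted p = 0.0866, 0.0990, 0.0861 and 0.0522), where 26.6% of all genes passed, and 4 to 10 with each mouse left out (16.7% to 50.3% of all genes). In the other fits it was 7 to 10 (16.1% of all genes without a filter to 58.2% with sample weights, and 36.1% in the reported fit), and 0 of the 10 genes changed direction. Quantile normalization moved the median age difference of all genes from -0.121 to 0.008. The KO count of 0 was 3 with sample weights, where Ina turned from 0.05 to -0.33, and no other fit gave a KO call among the 10 genes. Counted per gene and fit, KO values changed sign in 18 of 120 cases with all mice and in 18 of 60 with 1 left out. These cases share genes and mice and are not separate observations. Counts for R206W, P209L, the control lines and the KO minus R206W effects were 0 in every fit. With all 5 and 12 mice by age, mutants included, Nefh to Nefl was -0.55 and Ina to Nefl -0.23 (from -0.30 and -0.25). Both then passed, and Map1a to Map1b was -0.12 (from 0.22, adjusted p = 0.437 by exact permutation). The cause of these shifts was not tested. The deviations of same-numbered mice had an r of -0.11 to 0.33, highest for the third pair of the KO line. Of the KO and R206W mice, 2 of 6, both KO, correlated best with the control of their own number. With the replicate number as a block, the counts of calls were 0 in each mutant line and 9 by age, where 36.2% of all genes passed by age. All genes called in P209L went from 16 to 25. With 2 controls at 3 weeks and unknown depth, small differences could not be resolved.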
